A study of Mus musculus with 12 samples.

Results

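Malat1, Neat1, Kcnq1ot1, Tug1, Gas5 and Snhg1 are mouse genes whose products are long RNAs that code for no protein. They were followed across 12 RNA sequencing libraries of RAW264.7, a Balb/c mouse cell line labelled as immortalized monocytes and macrophages. The genes were chosen by their levels in replicate 2 against replicate 1 at days 3 and 5, where replicate 2 held little messenger RNA, so that contrast is given as a description and without a test. Neither the difference between treated and vehicle cells nor that between days was the contrast used. Over 12 libraries, however, differences of days 3 and 5 from day 1 include the replicate 2 values that were used. Of the 6 genes, 3 were matched on the gene symbol in the table and 2, Neat1 and Kcnq1ot1, by their identifier only, and no row was matched to Snhg1, which is not analysed here. The 5 genes with values stand among 23764 genes in all, and all 5 passed the filter on low values that left 14715 genes for testing.

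All cells received RANKL at 100 ug/ml, as the labels state the dose. RANKL is the signal for osteoclast formation. The treated cells were also given culture supernatant of the bacterium L. reuteri and the control cells were given vehicle, and RNA was harvested at days 1, 3 and 5. Each of the 6 groups had 2 libraries. The labels do not say whether the libraries of a group came from separate cultures, and every p-value below reflects library-to-library spread that may be technical. The line is 1 immortalized line, and the labels give no other cell type in the dishes.

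Malat1 RNA collects in nuclear speckles, where splicing factors are stored, and Neat1 RNA is the scaffold on which paraspeckle proteins assemble. Neither of their long forms ends in an ordinary poly(A) tail: the end is cut by RNase P and then folded into a triple helix of U-rich and A-rich stretches. Kcnq1ot1 is a very long unspliced RNA made from the paternal chromosome, antisense to Kcnq1, which silences neighbouring imprinted genes. Tug1 is spliced and polyadenylated and is found in the nucleus and the cytoplasm. Gas5 and Snhg1 carry small nucleolar RNAs in their introns, and their spliced RNA is exported and degraded by nonsense-mediated decay, so for Gas5 the word nuclear describes the introns better than the spliced product.

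Stretches of the 5 transcripts that bear on these ends are printed here, 3′ sequences for 4 genes and an internal run of A for Kcnq1ot1. They were read from the GENCODE M21 transcripts (GRCm38, longest transcript of each gene, written as DNA), which is a later build than the mm9 used for the deposited values. In Malat1 (chr19:5795982-5796070, minus strand) and Neat1 (chr19:5824708-5824802, minus strand) the capitals mark the runs of at least 10 bases that the last 400 bases of both transcripts share, 2 of them U-rich and 1 A-rich:
Malat1: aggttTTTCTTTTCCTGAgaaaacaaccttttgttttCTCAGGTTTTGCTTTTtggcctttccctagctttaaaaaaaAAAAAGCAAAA
Neat1: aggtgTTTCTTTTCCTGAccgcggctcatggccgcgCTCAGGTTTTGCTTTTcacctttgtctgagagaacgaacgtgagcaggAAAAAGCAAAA
Among 43368 genes whose longest transcript has at least 400 bases, Malat1 and Neat1 were the 2 with all 3 runs in this order in the last 400 bases, on the transcript strand. The Neat1 transcript of 20771 bases ends at the last letter shown, and the Malat1 transcript of 6983 bases is annotated past it.

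Kcnq1ot1 is annotated as a single exon of 93092 bases with no such end. Its longest run of A, in capitals, lies inside the transcript, in a window that starts at its base 69545 (chr7:143226925-143227005, minus strand). Tug1 (chr11:3639785-3639844, minus strand) and Gas5 (chr1:161038480-161038539, plus strand) are shown by their last 60 bases, with a poly(A) signal in capitals:
Kcnq1ot1: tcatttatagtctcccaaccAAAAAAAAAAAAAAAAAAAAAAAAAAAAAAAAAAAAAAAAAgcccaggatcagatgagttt
Tug1: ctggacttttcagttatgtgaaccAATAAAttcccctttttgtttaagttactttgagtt
Gas5: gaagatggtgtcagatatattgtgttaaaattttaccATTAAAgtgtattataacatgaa
The run in Kcnq1ot1 has 41 A, a length that the longest transcripts of 14 of 55450 genes reach or pass. The longest run of A was 12 bases in Malat1, 8 in Tug1, 7 in Neat1 and 5 in Gas5. The letters AATAAA stood in the last 60 bases of 31.1% of 55223 genes, and ATTAAA in 10.3%. A match of letters is a description and not a mapped end.

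The table also holds short annotated rows that lie inside these genes, and 2 of them are shown because their counts moved differently from the whole gene. Gm27694 spans bases 3588 to 3673 of Malat1 (chr19:5799000-5799085, minus strand), and Gm28006 spans bases 442 to 563 from the 5′ end of Neat1 (chr19:5844916-5845037, minus strand):
Gm27694: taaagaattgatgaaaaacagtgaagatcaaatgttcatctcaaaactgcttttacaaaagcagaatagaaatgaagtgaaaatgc
Gm28006: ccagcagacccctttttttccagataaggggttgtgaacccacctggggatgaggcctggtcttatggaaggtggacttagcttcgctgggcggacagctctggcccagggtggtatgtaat
The counting step is not given in the sources used here, so it is not known whether a read in such a row was also counted for the gene around it, and reads of the 2 strands cannot be told apart.

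The 12 libraries held 8071160 to 16781080 reads assigned to genes, as worked back from the scaled values. Replicate 2 of days 3 and 5, in both arms, had 38.1% to 48.8% of its reads on protein-coding genes of the nucleus, while the remaining 8 libraries had 85.2% to 87.6%. Mitochondrial genes took 25.7% to 30.6% of reads there, against 3.64% to 5.97%. The defining markers of other cell types were at or near 0: of the fibroblast, epithelial and lymphocyte lists, the summed normalized counts per library reached at most 15.5, while the 10 macrophage markers with a row summed to at least 26016 in every library. Markers of the cells themselves moved with the 4 libraries: of 10 tested macrophage markers, 7 at day 3 and 8 at day 5 were over 2-fold lower in replicate 2 in both arms and 0 were higher. Of 9 tested osteoclast markers, 1 was over 2-fold higher and 2 were lower at day 3, and 6 were higher and 0 lower at day 5, with a median log2 difference of 2.58 in treated and 2.58 in vehicle cells. Among all tested genes, 53.3% at day 3 and 45.2% at day 5 were over 2-fold lower in both arms, and 8.0% and 8.09% were higher. The macrophage medians at day 3 were -1.44 in treated and -2.29 in vehicle cells, beside -1.20 and -1.71 for all tested genes. At day 5 they were -1.23 and -2.07, beside -0.92 and -1.28. The part of these markers in the results below was not tested. The normalized counts used below have the same total in every library, as the authors scaled them, so a rise of 1 RNA lowers the others. In bulk RNA, fewer cells of a kind and less RNA per cell cannot be told apart.

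Malat1 was the most abundant of the 5 RNAs and had the largest excess in replicate 2 of day 3. At day 3 it had 1101977 normalized counts in replicate 2 and 62091 in replicate 1 of the treated cells, and 1774956 in replicate 2 and 48762 in replicate 1 of the vehicle cells. The day 5 counts were 1035876 in replicate 2 and 42680 in replicate 1 of the treated cells, and 1250881 in replicate 2 and 36915 in replicate 1 of the vehicle cells. Replicate 2 was thus 17.7 and 24.3 times as high as replicate 1 in treated cells of days 3 and 5, and 36.4 and 33.9 times as high in vehicle cells. At day 1 the 2 replicates were close, with 35155 in replicate 2 and 27757 in replicate 1 of the treated cells, and 28650 in replicate 2 and 27781 in replicate 1 of the vehicle cells.

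Kcnq1ot1 showed the same step at a far lower level. It had 13607 normalized counts in replicate 2 and 1151 in replicate 1 of treated cells at day 3, and 14729 in replicate 2 and 1006 in replicate 1 of vehicle cells. By day 5 the counts were 9060 in replicate 2 and 362 in replicate 1 of treated cells, and 9366 in replicate 2 and 352 in replicate 1 of vehicle cells. Replicate 2 was 11.8 and 24.9 times as high in treated cells at days 3 and 5, and 14.6 and 26.6 times as high in vehicle cells. The ratio of Kcnq1ot1 to Malat1 moved little beside these steps: per 1000 normalized counts of Malat1 there were 7.49 to 12.3 of Kcnq1ot1 in replicate 2 of days 3 and 5, and 8.49 to 20.6 in the other 8 libraries.

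Neat1, which shares the 3′ end structure of Malat1, differed by far less. It had 16155 normalized counts in replicate 2 and 9655 in replicate 1 of treated cells at day 3, and 12354 in replicate 2 and 8098 in replicate 1 of vehicle cells. At day 5 it had 26560 in replicate 2 and 12551 in replicate 1 of treated cells, and 21746 in replicate 2 and 13379 in replicate 1 of vehicle cells. Replicate 2 was therefore 1.67 and 2.12 times as high in treated cells at days 3 and 5, and 1.53 and 1.63 times as high in vehicle cells. Per 1000 normalized counts of Malat1, Neat1 had 6.96 to 25.6 in those 4 libraries and 156 to 362 in the other 8. The authors' scaling sets part of such a value: scaled to equal totals over nuclear protein-coding genes, the Neat1 log2 difference was 1.60 and 1.93 in treated cells and 1.78 and 1.80 in vehicle cells at days 3 and 5.

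Tug1 went the other way. It had 252 normalized counts in replicate 2 and 1665 in replicate 1 of treated cells at day 3, and 146 in replicate 2 and 1840 in replicate 1 of vehicle cells. The counts at day 5 were 421 in replicate 2 and 1456 in replicate 1 of treated cells, and 294 in replicate 2 and 1434 in replicate 1 of vehicle cells. On the log2 scale the difference was -2.72 and -3.65 in treated and vehicle cells at day 3 and -1.79 and -2.28 at day 5, below the medians of all tested genes, which were -1.20 and -1.71 at day 3 and -0.92 and -1.28 at day 5. Tug1 stayed lower in replicate 2 when totals over nuclear protein-coding genes were set equal, with log2 differences of -1.86 and -2.49 at day 3 and -0.95 and -1.19 at day 5.

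On the authors' scale Gas5 had no common direction. At day 3 it had 2491 normalized counts in replicate 2 and 2657 in replicate 1 of treated cells, and 1411 in replicate 2 and 2800 in replicate 1 of vehicle cells. At day 5 it had 2098 in replicate 2 and 1428 in replicate 1 of treated cells, and 1437 in replicate 2 and 1479 in replicate 1 of vehicle cells. In replicate 2 the treated library held more Gas5 than the vehicle library at both days, whereas in replicate 1 the vehicle library was slightly ahead. With equal totals over nuclear protein-coding genes the mean log2 difference over both arms at day 3 was 0.47, against -0.54 on the authors' scale. With those equal totals replicate 2 was higher in both arms at both days. The differences were 0.76 in treated and 0.18 in vehicle cells at day 3, and 1.40 and 1.05 at day 5. On the authors' scale Gas5 lay above the median of all tested genes by 1.11 and 0.72 at day 3, and by 1.48 and 1.24 at day 5.

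**Figure D1:**
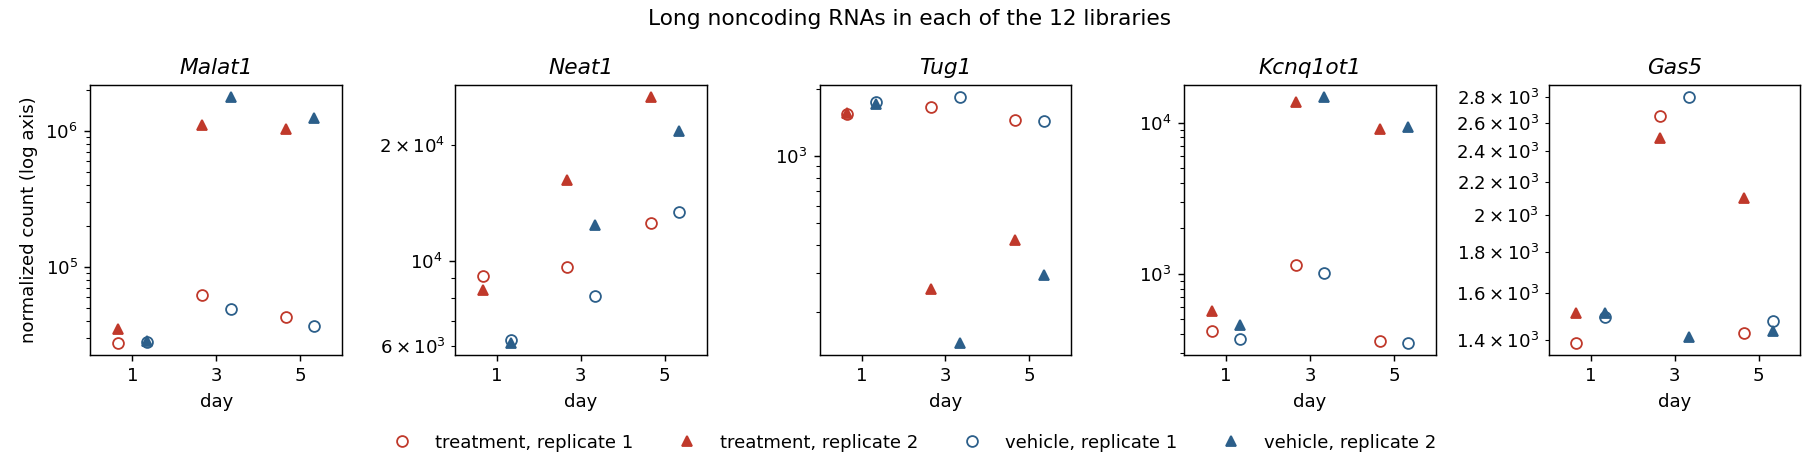
Normalized counts (log axis, a scale of its own in each panel) of the 5 genes in all 12 libraries by day, treated cells in red left of vehicle cells in blue, with open circles for replicate 1 and filled triangles for replicate 2. At days 3 and 5 the triangles of Malat1 and Kcnq1ot1 lie over 10 times above the circles, those of Neat1 lie up to 2.12 times above and those of Tug1 lie below.

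Of the 5 genes, 2 were over 2-fold higher in replicate 2 in both arms and 1 was over 2-fold lower, at day 3 and again at day 5. Among all tested genes, 8.0% were over 2-fold higher in both arms at day 3 and 8.09% at day 5, and 53.3% and 45.2% were over 2-fold lower. These counts depend on the scale: with equal totals over nuclear protein-coding genes, 2285 genes were higher and 4032 lower at day 3, and 2675 were higher and 2822 lower at day 5. On that scale Neat1 was over 2-fold higher in both arms at both days. Gas5 was over 2-fold higher in both arms at day 5, at 1.40 in treated and 1.05 in vehicle cells. Tug1 at day 5 in treated cells, at -0.95, was not over 2-fold lower. At day 1, 0 of the 5 were over 2-fold apart, beside 0.143% of tested genes higher and 0.109% lower in both arms. Nearest to the 2-fold line were Neat1 at day 5 in treated cells, just past it with a log2 difference of 1.08, and Gas5 at day 3 in vehicle cells, just short of it with -0.99. These genes were picked for this contrast, so the counts are descriptive. Other long noncoding RNAs were mixed as well: of 17 tested in a list of 27 (such as Airn, the imprinted antisense RNA of Igf2r, and Rpph1, the RNA of RNase P), 6 were over 2-fold higher in both arms at day 3 and 5 were over 2-fold lower. Of 13 tested noncoding hosts of small nucleolar RNAs other than Gas5, 0 were over 2-fold higher at day 3 and 2 were over 2-fold lower.

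Among the long noncoding classes described here the median excess in replicate 2 was largest in the TEC class, transcripts that the annotation marks as still to be experimentally checked. The 253 tested TEC genes had a median log2 difference of 3.15 in treated and 3.35 in vehicle cells at day 3, and of 2.66 and 2.77 at day 5. The class of Malat1 and Neat1, lincRNA, had medians of -0.26 and -0.48 at day 3 over 303 genes. Of these, 28.7% in treated and 26.7% in vehicle cells were over 2-fold higher in replicate 2, beside 10.2% and 9.24% of all tested genes. Over 2-fold lower were 36.6% and 38.3%, beside 55.7% and 66.7% of all tested genes. Antisense genes, the class of Kcnq1ot1 and Tug1, had medians of -1.12 and -1.50 over 585 genes, near the medians of all tested genes. Long noncoding genes with 1 annotated exon had medians of 2.29 and 2.71 at day 3, but 247 of these 334 genes are TEC, and the other 87 had medians of 0.0072 in treated and -0.14 in vehicle cells. Kcnq1ot1 has 1 exon, while Malat1 has up to 2, Neat1 and Tug1 up to 4 and Gas5 up to 12 in their annotated transcripts. Beside these stood the mitochondrial genes, with medians of 2.17 and 2.46 at day 3, and the small nuclear RNAs, with 3.69 and 4.0. The filter on low values used all 12 libraries. A gene could therefore pass through replicate 2 of days 3 and 5 alone, and such a gene is higher in replicate 2 by construction. How many genes of each class passed in this way was not looked at. The class medians, among them those of TEC and of small nuclear RNAs, are descriptions with this limit. What sets these 4 libraries apart was not tested.

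**Figure D2:**
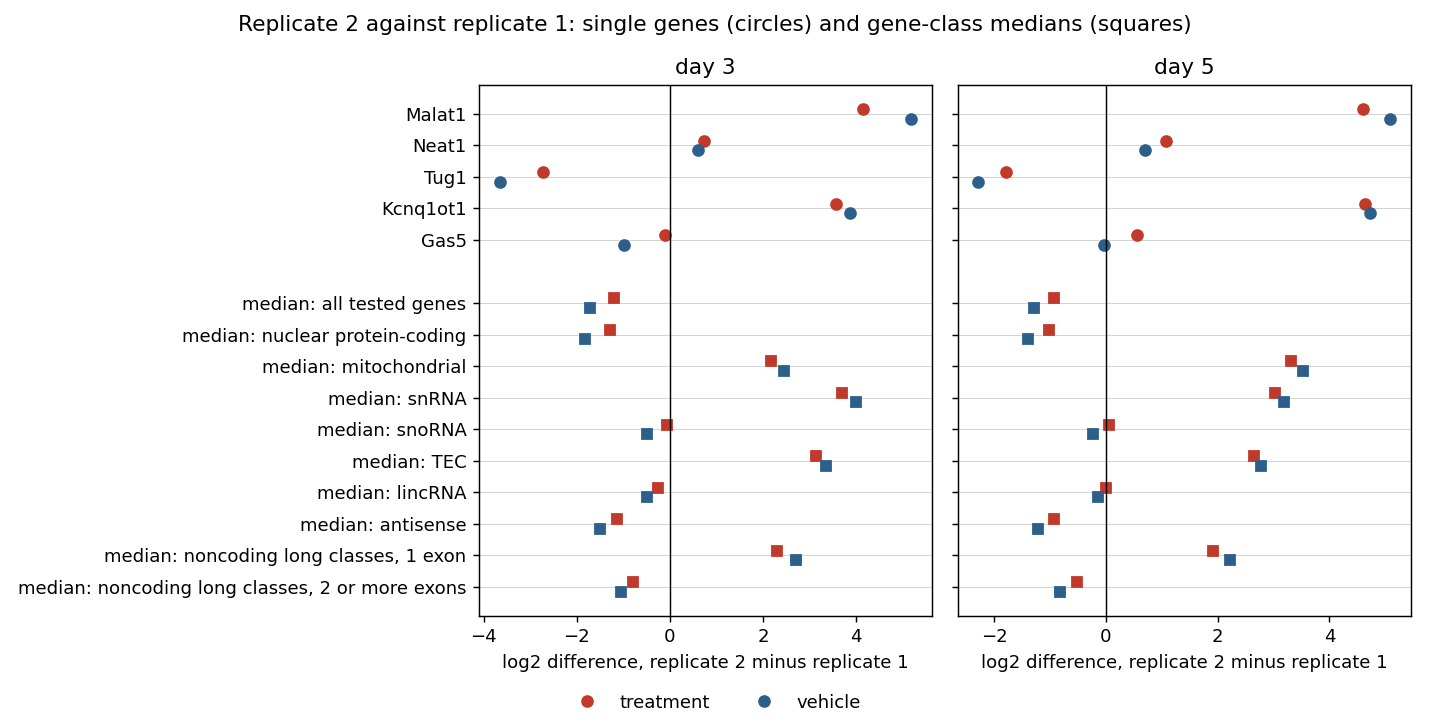
Log2 difference between replicate 2 and replicate 1 at day 3 (left panel) and day 5 (right panel) for the 5 genes (circles) and for the median gene of several classes (squares), with treated cells in red above vehicle cells in blue. Malat1 and Kcnq1ot1 lie at 3.56 to 5.19, beyond the medians of the mitochondrial genes at day 3, Tug1 lies below the median of all tested genes, and the TEC class lies at 2.66 to 3.35.

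The short rows inside Malat1 did not follow the gene equally. Gm37376, a row of 453 bases near the 5′ end on the opposite strand, had 464414 normalized counts in replicate 2 and 11158 in replicate 1 of treated cells at day 3, and 599163 in replicate 2 and 8296 in replicate 1 of vehicle cells. Its count was 33.8% to 42.1% of the Malat1 count in replicate 2 of days 3 and 5, against 15% to 18.0% in the other 8 libraries, although it spans 6.49% of the gene's length. Gm27694, the 86 bases printed above, had 2913 in replicate 2 and 2034 in replicate 1 of treated cells at day 3, and 2014 in replicate 2 and 1674 in replicate 1 of vehicle cells. Its count was 0.113% to 0.264% of the Malat1 count in those 4 libraries, against 3.28% to 3.86% in the other 8. The excess in replicate 2 thus differed between these 2 rows and the whole Malat1 row. How reads were divided between overlapping rows is not known, so the spread of the excess along the gene was not tested.

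In Neat1 the 3 short rows were lower in replicate 2 while the whole gene was higher. All 3 lie in the first 1193 bases, and the sequences of Gm27505 and Gm27533 stand in the annotated short transcript of 3004 bases as well as in the long one. Gm28006, printed above, had 120 normalized counts in replicate 2 and 672 in replicate 1 of treated cells at day 3, and 54.4 in replicate 2 and 554 in replicate 1 of vehicle cells. At day 5 it had 244 in replicate 2 and 886 in replicate 1 of treated cells, and 162 in replicate 2 and 966 in replicate 1 of vehicle cells. Over the 3 rows, both arms and both days the log2 difference ran from -3.33 to -0.59, against 0.61 to 1.08 for the whole gene. Together the 3 rows summed to 509 in treated and 197 in vehicle cells in replicate 2 of day 3, and to 1993 in treated and 1678 in vehicle cells in replicate 1.

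The 4 short rows inside Tug1 were low in replicate 2. They summed to 15.7 in replicate 2 and 242 in replicate 1 of treated cells at day 3, and to 13.2 in replicate 2 and 287 in replicate 1 of vehicle cells. At day 5 they summed to 7.2 in replicate 2 and 245 in replicate 1 of treated cells, and to 9.9 in replicate 2 and 242 in replicate 1 of vehicle cells. Kcnq1ot1 holds 4 short rows on the opposite strand, of which Gm27395 alone passed the filter, with 56.7 in replicate 2 and 14.9 in replicate 1 of treated cells at day 3, and 104 in replicate 2 and 14.1 in replicate 1 of vehicle cells. Kcnq1, the potassium channel gene that Kcnq1ot1 overlaps, had at most 4.6 normalized counts in any library.

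Gas5 holds 9 short rows inside the gene that the annotation classes as small nucleolar RNAs, among them Snord47, Snord78 and Snord80, which guide methylation of ribosomal RNA. Whether each row lies outside every annotated exon of Gas5 was not looked at. The 9 rows summed to 264 in replicate 2 and 632 in replicate 1 of treated cells at day 3, and to 98.5 in replicate 2 and 560 in replicate 1 of vehicle cells. At day 5 they summed to 123 in replicate 2 and 253 in replicate 1 of treated cells, and to 109 in replicate 2 and 301 in replicate 1 of vehicle cells. Snord80 had 3.1 in replicate 2 and 43.8 in replicate 1 of treated cells at day 3, and 0 in replicate 2 and 31.3 in replicate 1 of vehicle cells. So the sum of the 9 rows was lower in replicate 2 in both arms, where the Gas5 row itself had no common direction on the authors' scale. The median log2 difference of all tested genes was also below 0. It was -1.20 in treated and -1.71 in vehicle cells at day 3, and -0.92 and -1.28 at day 5. Single rows differed: Gm25789 was at 0.61 in treated and -1.15 in vehicle cells at day 3, and at 0.21 and 0.60 at day 5. The 8 short rows inside Snhg1, among them Snord22 (the host gene itself is not analysed here), summed to 48.7 in replicate 2 and 132 in replicate 1 of treated cells at day 3, and to 19.1 in replicate 2 and 125 in replicate 1 of vehicle cells.

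**Figure D3:**
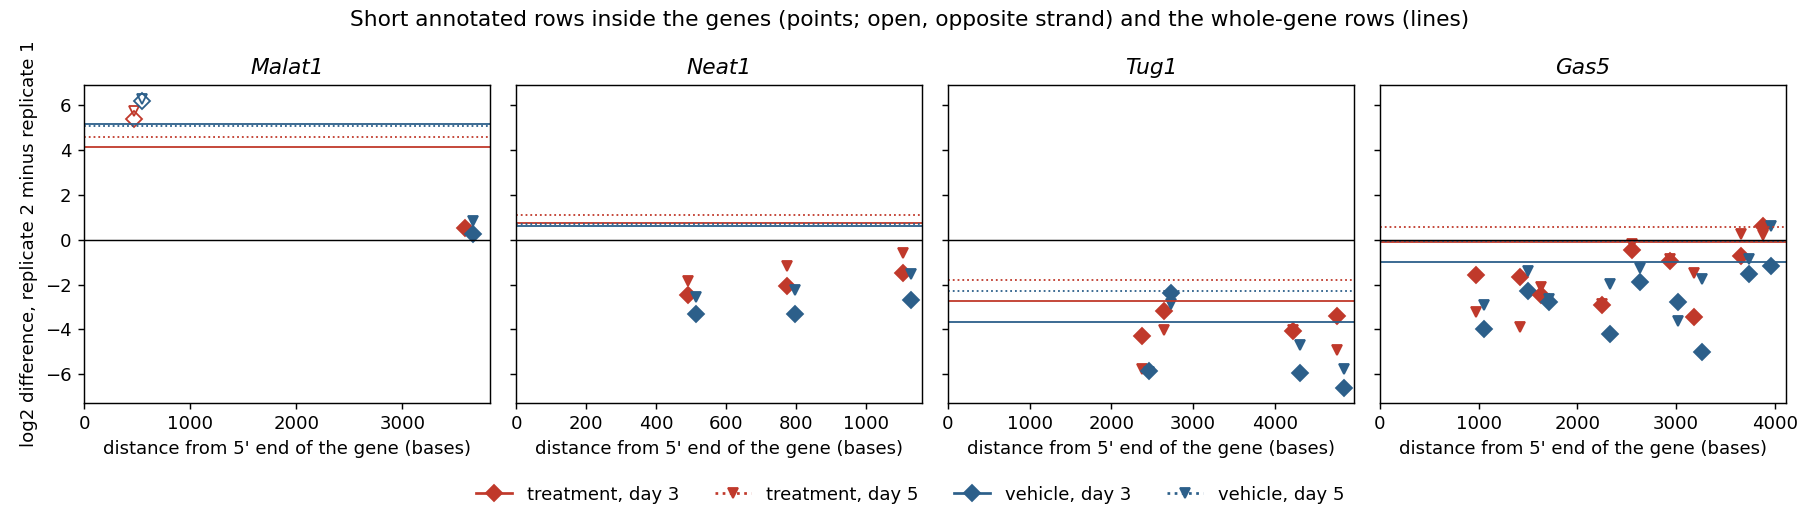
Log2 difference between replicate 2 and replicate 1 (vertical axis) for short annotated rows inside Malat1, Neat1, Tug1 and Gas5, placed by distance from the gene's 5′ end in bases, with treated cells in red left of vehicle cells in blue, diamonds for day 3 and triangles for day 5. Lines give the whole-gene rows (solid for day 3, dotted for day 5), and open symbols mark a row on the opposite strand. The Malat1 row at 3588 bases and the 3 Neat1 rows lie well below the lines of their genes.

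Per kilobase of exon the genes kept a wide order at day 1. Malat1 had 4505 ± 749 normalized counts per kilobase in treated and 4041 ± 88.0 in vehicle cells (SD, n = 2). Neat1 had 421 ± 25.5 in treated and 298 ± 2.98 in vehicle cells, and Gas5 had 386 ± 22.6 in treated and 400 ± 2.84 in vehicle cells. Tug1 had 160 ± 1.67 in treated and 178 ± 1.73 in vehicle cells, and Kcnq1ot1 had 5.28 ± 1.13 in treated and 4.43 ± 0.656 in vehicle cells. Neat1 and Gas5 are neighbours in this order, Neat1 above Gas5 in treated cells and below it in vehicle cells. The length used for Gas5, 3760 bases, counts every annotated exon and so understates its level. For Tug1 the length used was 9734 bases, while its longest transcript has 6719. For Neat1 it was 20771 bases, the long transcript, while the short transcript has 3004. How reads divide between transcripts was not looked at, so the order per kilobase is a rough one.

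The treatment comparison asks whether the bacterial supernatant changed these RNAs beside vehicle at the same day. Over all 12 libraries none of the 5 genes passed at any day (limma on log2(normalized count + 1), Benjamini-Hochberg adjusted p = 1 for each at each day), and among all tested genes 0% passed, with 19, 43 and 51 genes at an unadjusted p under 0.05 at days 1, 3 and 5. A fit by limma-voom also called 0 genes, with 25, 30 and 46 at that unadjusted level. The limma-voom fit was not run on simulated data. On data simulated from these libraries the first fit, limma on log2(normalized count + 1) over 12 libraries, called none of the changed genes. Its lack of calls therefore does not show that levels were alike. The replicate spread of days 3 and 5 enters the errors of this fit, and the 8 libraries without replicate 2 of those days were fitted as an alternative. In that fit days 3 and 5 have 1 library per arm and take their spread from day 1.

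Neat1 was higher in treated cells at day 1, with 9130 and 8380 normalized counts in treated libraries, against 6225 and 6137 in vehicle libraries. The treated and vehicle values do not overlap. With 2 libraries per group this is a description only, since the share of all tested genes that separate in this way was not counted. The log2 difference was 0.50 with an SE of 0.51 over 12 libraries, and with an SE of 0.06 (limma adjusted p = 0.0183) over the 8 libraries, where 5.74% of tested genes passed at day 1 (3.12% higher and 2.62% lower). That call rests on all 4 libraries of day 1: with any 1 of them left out, the adjusted p was 0.173 to 0.213 and 0 genes of the table passed. In libraries of the same day and number Neat1 was higher in treated cells in 5 of 6 pairs. In replicates 1 and 2 the log2 differences were 0.55 and 0.45 at day 1, 0.25 and 0.39 at day 3, and -0.09 and 0.29 at day 5. The share of all tested genes higher in as many pairs was not counted. At day 1 the differences between replicates correlated between arms at 0.07, so the shared numbers are not a true pairing there. The median of all tested genes was 0.46 and 0.23 in the replicate 2 pairs of days 3 and 5, above or near Neat1. Those pairs were close per 1000000 normalized counts on nuclear protein-coding genes, with 2704 in the treated and 2552 in the vehicle library at day 3, and 4284 in the treated and 4178 in the vehicle library at day 5.

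The short rows at the 5′ end of Neat1 stood the same way at day 1. Gm28006 had 626 and 603 normalized counts in treated libraries, against 437 and 461 in vehicle libraries. Gm27505 had 679 and 542 in treated libraries, against 354 and 437 in vehicle libraries, and Gm27533 had 729 and 634 in treated libraries, against 463 and 465 in vehicle libraries. Over the 8 libraries Gm28006 rose by 0.45 on the log2 scale (limma adjusted p = 0.0222) and Gm27533 by 0.55 (adjusted p = 0.0288), and Gm27505, at 0.62, did not pass (adjusted p = 0.0773). These rows lie inside Neat1 and may share its reads, so they are not independent of it. In replicate 2 of days 3 and 5 the 3 rows summed to 509 and 1139 in treated libraries, against 197 and 678 in vehicle libraries, and in replicate 1 to 1993 and 2504 in treated libraries, against 1678 and 2801 in vehicle libraries.

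The treatment difference of Neat1 was not shown to change with the day. The test over days gave an adjusted p of 1.00 over 12 libraries and 0.139 over the 8. When the filter on low values was applied to the 8 libraries themselves, which left 14371 genes, it gave 0.00643, a setting chosen after the data were seen.

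The other 4 genes did not pass at day 1 in either fit. Whether treated and vehicle libraries overlap is given as a description, without the share among all tested genes. Malat1 had 27757 and 35155 normalized counts in treated libraries, against 27781 and 28650 in vehicle libraries (log2 difference 0.15, limma adjusted p = 0.520 over 8 libraries), so the groups overlap. Kcnq1ot1 had 418 and 566 in treated libraries, against 370 and 456 in vehicle libraries (0.24, adjusted p = 0.442), and these overlap too. Tug1 had 1544 and 1567 in treated libraries, against 1742 and 1718 in vehicle libraries (-0.15, adjusted p = 0.102), without overlap. Gas5 had 1390 and 1510 in treated libraries, against 1497 and 1512 in vehicle libraries (-0.05, adjusted p = 0.593), with overlap.

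At days 3 and 5 none of the 5 passed over the 8 libraries either, where 0.116% of tested genes were called at day 3 and 5.81% at day 5 (2.54% higher and 3.27% lower). The pairs disagreed between replicates for Malat1, which was higher in treated cells in replicate 1 (log2 difference 0.35 at day 3 and 0.21 at day 5) and lower in replicate 2 (-0.69 and -0.27). Gas5 was lower in treated cells in replicate 1 (-0.08 and -0.05) and higher in replicate 2 (0.82 and 0.55). Tug1 was at -0.14 in replicate 1 and 0.79 in replicate 2 at day 3, and at 0.02 and 0.52 at day 5. In replicate 2 the median of all tested genes was itself 0.46 at day 3 and 0.23 at day 5, and nuclear protein-coding genes held 47.0% and 48.8% of reads in the treated libraries, against 38.1% and 40.95% in the vehicle libraries, at days 3 and 5. Whether that share moves these differences was not tested.

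**Figure D4:**
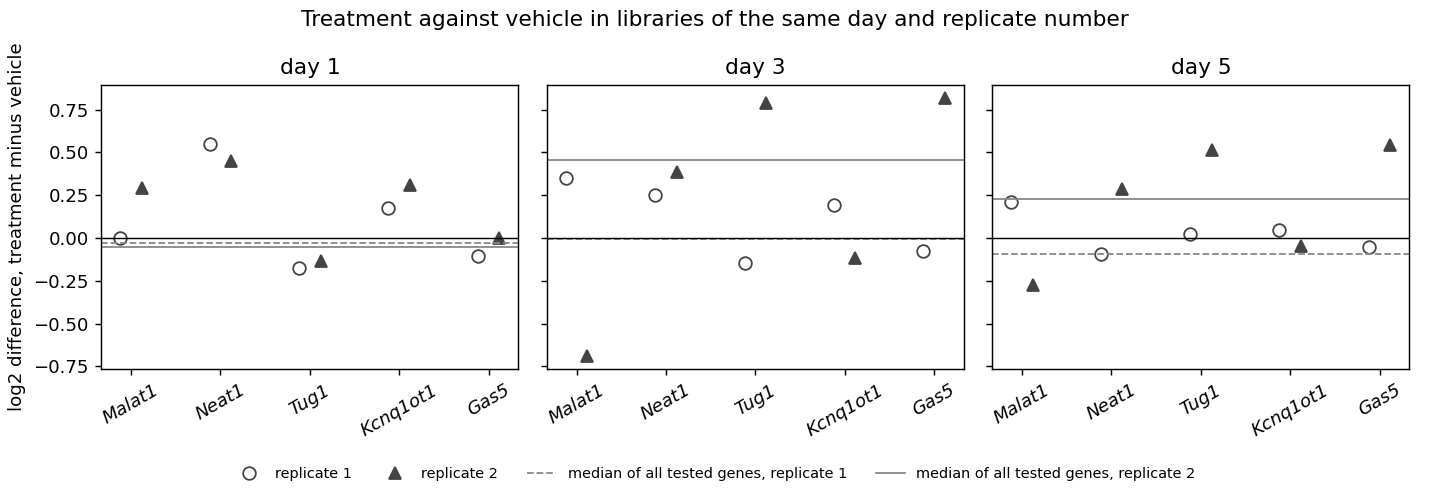
Log2 difference between treated and vehicle libraries of the same day and replicate number for the 5 genes, with open circles for replicate 1, filled triangles for replicate 2 and grey lines for the median of all tested genes. Neat1 is above 0 in 5 of 6 pairs, and at days 3 and 5 the circles and triangles of Malat1 lie on opposite sides of 0.

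The proteins that these RNAs work with were described by lists. Of 25 genes of paraspeckle proteins, all tested, 0 rose and 5 fell at day 1 of treatment over the 8 libraries, among them Sfpq, a core protein that binds Neat1 (-0.23, limma adjusted p = 0.0481), Tardbp (-0.25, adjusted p = 0.0416), Nudt21, a cleavage factor subunit (-0.34, adjusted p = 0.0379), and Rbm12 (-0.61, adjusted p = 0.0271). Over all tested genes 3.12% rose and 2.62% fell, and the median of the list was -0.13 beside -0.04. Of 23 genes of nuclear speckle proteins, 0 rose and 3 fell, namely the splicing factors Srsf1 (-0.28), Srsf3 (-0.26) and Srsf7 (-0.29). None of these calls held with any 1 library of day 1 left out, since 0 genes then passed, nor over 12 libraries.

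The next lists stand beside the same 3.12% and 2.62% of all tested genes, and each of their calls was lost with any 1 library of day 1 left out. Of 18 nonsense-mediated decay factors, 0 rose and 1 fell at day 1, Magoh of the exon junction complex (-0.36, limma adjusted p = 0.0416). Of 11 proteins of small nucleolar ribonucleoproteins and of 13 other noncoding hosts of small nucleolar RNAs, 0 passed in either direction. Among 17 other long noncoding RNAs 0 rose and 1 fell, 1700020I14Rik, with 932 and 936 normalized counts in treated libraries, against 1241 and 1285 in vehicle libraries (-0.43, adjusted p = 0.0149). Of the 10 tested genes next to Malat1 and Neat1, 1 fell, Frmd8 (-0.32, adjusted p = 0.0437), and 0 rose. At the Kcnq1ot1 imprinted domain 4 of 12 genes were tested, Nap1l4, Tssc4, Dhcr7 and Cd81, and 0 passed.

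Under vehicle, days 3 and 5 were each set against day 1. Over 12 libraries 0% of genes passed in either comparison, with 288 and 207 genes at an unadjusted p under 0.05, and limma-voom called 0 with 259 and 214 at that level. Over the 8 libraries 9.69% of tested genes were higher and 10.0% lower at day 3 (19.7% in all), and 14.4% were higher and 15% lower (29.4% in all) at day 5. There the later day is 1 library, replicate 1. Over 12 libraries, with replicate 2 included, the log2 differences from day 1 were 3.38 and 2.93 for Malat1 at days 3 and 5, 0.69 and 1.46 for Neat1, -1.74 and -1.41 for Tug1, 3.23 and 2.14 for Kcnq1ot1, and 0.40 and -0.05 for Gas5. None passed (limma adjusted p 0.598 to 0.963), and for Malat1, Tug1 and Kcnq1ot1 these estimates mix replicates that lie far apart. All of them include the replicate 2 values that the genes were chosen on. The next paragraphs describe replicate 1.

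Gas5 and Kcnq1ot1 were high at day 3 alone in replicate 1. Gas5 had 2800 normalized counts in replicate 1 of day 3, against 1497 and 1512 at day 1 (log2 difference 0.90, SE 0.07, limma adjusted p = 0.00199 over 8 libraries), and 1479 at day 5 (-0.02, adjusted p = 0.817). Kcnq1ot1 had 1006 at day 3, against 370 and 456 at day 1 (1.29, SE 0.21, adjusted p = 0.0149), and 352 at day 5 (-0.22, adjusted p = 0.473). The treated cells had the same shape in replicate 1, with 1390, 2657 and 1428 for Gas5 and 418, 1151 and 362 for Kcnq1ot1 at days 1, 3 and 5. Without vehicle replicate 1 or vehicle replicate 2 of day 1 the adjusted p for day 3 was 0.0588 and 0.0576 for Gas5 and 0.126 and 0.0968 for Kcnq1ot1, and over all 4 such omissions it was 0.0210 to 0.0588 and 0.0348 to 0.126.

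Malat1 was also highest at day 3 in replicate 1, with 48762 normalized counts, against 27781 and 28650 at day 1 (log2 difference 0.79, SE 0.15, limma adjusted p = 0.0236 over 8 libraries). At day 5 it had 36915 (0.39, adjusted p = 0.117), and with the filter applied to the 8 libraries the adjusted p was 0.0117. The treated cells had 27757, 62091 and 42680 in replicate 1 at days 1, 3 and 5. Leaving out 1 library of day 1 gave an adjusted p of 0.0439 to 0.157 for day 3, over 0.05 without vehicle replicate 1 (0.157) and without vehicle replicate 2 (0.150).

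Neat1 was higher at each later day under vehicle. It had 8098 normalized counts in replicate 1 of day 3 and 13379 in replicate 1 of day 5, against 6225 and 6137 at day 1. The log2 difference from day 1 was 0.39 at day 3 (SE 0.07, limma adjusted p = 0.0206) and 1.11 at day 5 (adjusted p = 0.00124) over 8 libraries. With 1 library of day 1 left out the adjusted p ran from 0.0541 to 0.132 at day 3 and from 0.0166 to 0.0456 at day 5, so that only the call at day 5 held in all 4 omissions. In treated cells Neat1 started higher and had 9130, 9655 and 12551 in replicate 1 at days 1, 3 and 5.

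In replicate 1 Tug1 did not pass at day 3 and was lower at day 5. It had 1840 normalized counts in replicate 1 of day 3 (log2 difference 0.09, limma adjusted p = 0.283) and 1434 in replicate 1 of day 5 (-0.27, adjusted p = 0.0173), against 1742 and 1718 at day 1. Without 1 library of day 1 the adjusted p at day 5 was 0.0540 to 0.0788, so each such omission ended the call. The treated cells had 1544, 1665 and 1456 in replicate 1.

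At day 3 the small nucleolar RNA class and single-exon noncoding genes were higher too in replicate 1, with median log2 differences from day 1 of 0.28 and 0.34 under vehicle and 0.55 and 0.20 under treatment, beside 0.04 and 0.06 for all tested genes. The 9 short rows inside Gas5 summed to 321, 632 and 253 in treated cells and 335, 560 and 301 in vehicle cells in replicate 1 at days 1, 3 and 5. Of 13 other noncoding hosts of small nucleolar RNAs, 3 rose and 0 fell at day 3 under vehicle over the 8 libraries. These were Zfas1 (0.93, limma adjusted p = 0.00472), Snhg4 (0.94, adjusted p = 0.00722) and Snhg6 (0.60, adjusted p = 0.0471), and the list had a median of 0.41 beside 0.04. Over all tested genes 9.69% rose and 10.0% fell, and without vehicle replicate 1 of day 1 no gene passed (0 of 14715), so these calls were lost. At day 5, 0 rose and 1 fell. The part of these classes in the values of Gas5 and Kcnq1ot1 was not tested.

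Of 25 paraspeckle protein genes, 1 rose and 1 fell at day 3 under vehicle, Sfpq (0.26, limma adjusted p = 0.0262) and Taf15 (-0.53, adjusted p = 0.0103), and 0 rose and 8 fell at day 5, when Neat1 was highest. Over all tested genes 9.69% rose and 10.0% fell at day 3, and 14.4% rose and 15% fell at day 5. Without vehicle replicate 1 of day 1 the calls of day 3 were lost. Day 5 is 1 library here. Whether its calls, in this list and in the one named last, held with 1 library of day 1 left out was not looked at. A link between these genes and Neat1 was not tested. The list had a median of -0.19 at day 5, and the median over all tested genes was near 0. Of 11 proteins of small nucleolar ribonucleoproteins, 0 rose and 7 fell at day 5.

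The genes most like each of the 5 were sought by Pearson correlation of log2 values over the 12 libraries among 11125 genes whose normalized counts averaged 50 or more. Since 4 of the 12 libraries stand apart, these correlations are descriptions. Malat1 was followed most closely by Gm37376, which lies inside it (r = 0.999), and then by A130071D04Rik (0.995) and A630072M18Rik (0.995). Kcnq1ot1 was followed by 9430053O09Rik (0.996) and Gm38071 (0.995). Tug1 was followed by the protein-coding genes Coa5, Polr2m and Zbtb34 (each 0.999), Neat1 by Lyl1, Mpv17 and 1110008P14Rik (0.943, 0.942 and 0.940), and Gas5 by the pseudogene Rps3a3 (0.933), Rps18 (0.911) and Lpcat1 (0.893). Among themselves Malat1 and Kcnq1ot1 had r = 0.984 and Malat1 and Tug1 had r = -0.970, while Gas5 was between 0.01 and 0.28 with the other 4.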

How the data were processed

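Per the file headers, the table deposited by the authors covers all libraries and gives 1 log2 value per gene and library. The values show it to be log2 of a normalized count with 8 added, which sets a lowest value of 3 and leaves equal totals in every library. Once the 8 was taken off, 100% of positive values were whole multiples of 1 step within 0.02 reads, which gave back the reads. TopHat2, SAMtools, DESeq2 and the build mm9 are named in the submitters' processing notes. No versions, annotation or counting step could be taken from the sources used here. Per the labels' protocols, libraries were made from total RNA with a TruSeq RNA kit. The table had 24757 rows for 23764 identifiers, and 993 duplicates with the same values were removed. Names, classes and positions inside genes came from GENCODE M21 (GRCm38), which named 23315 identifiers.

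The genes and all lists were chosen with earlier results of these data known. Genes that averaged 10 or more normalized counts in at least 1 of 6 groups were tested with limma 3.58.1 (R 4.3.3, trended prior) on log2(normalized count + 1), with 1 mean per group over 12 libraries and Benjamini-Hochberg adjustment over 14715 genes. Low genes show smaller fold changes on this scale than their true ones. The difference between days was an F test over 2 contrasts. The fits were tested on data simulated from these libraries: the 12-library fit called none of the changed genes, and the 8-library fit called some at day 1 and none at days 3 and 5. Named beside the 5 genes were the 3 genes most correlated with each (1 is not reported here) and up to 4 genes of a list with the smallest p, taken over the 8 libraries since no gene passed over 12, a step decided after seeing the data. The 2 libraries of each group were unlike beyond sampling noise (chi-square per degree of freedom 3.94 or more), and none was counted as a repeat. Tables and figures were made with matplotlib 3.10.9, pandas 2.3.3 and numpy 2.4.6 under Python 3.11.15.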

Additional observations from a re-analysis of the deposited data

Results flagged for a closer look

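Tug1 was lower in treated than in vehicle libraries in both pairs of day 1 and higher in both pairs of day 5, so the treatment difference had opposite signs at these days. The mean log2 difference of the 2 pairs was -0.15 at day 1 and 0.27 at day 5. At day 5 replicate 1 gave 0.02 and replicate 2 gave 0.52, where the median of all tested genes was 0.23, and with 1 library left out the difference ran from -0.87 to 1.41. The test of the difference between days gave an adjusted p of 1.00 (limma, 12 libraries) and 0.390 (8 libraries), so a change with the day was not shown.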

How the results depend on the processing

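Over the 8 libraries without replicate 2 of days 3 and 5, limma called 844, 17 and 855 genes for treatment at days 1, 3 and 5, 2898 and 4330 for vehicle days 3 and 5 against day 1, and 15 for a difference of the treatment effect over days, where 12 libraries gave 0 throughout. With the filter applied to those 8 libraries, an alternative added after seeing the data like the omissions within them, the counts were 2012, 391, 2203, 4082, 5371 and 999. In both 8-library fits log2 differences had the other sign for Malat1 (0.35), Tug1 (-0.14) and Gas5 (-0.076) at day 3 of treatment, for Malat1 (0.21), Neat1 (-0.092), Kcnq1ot1 (0.044) and Gas5 (-0.051) at day 5, and for Tug1 at vehicle day 3 (0.089) and Kcnq1ot1 at vehicle day 5 (-0.22). Fewer samples enter these fits by construction.

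A replicate block gave 0, 4 and 17 calls for treatment at days 1, 3 and 5 and 9366 and 7562 for vehicle days 3 and 5. With the block Malat1 (3.38 and 2.93), Neat1 (0.69 and 1.46), Tug1 (-1.74 and -1.41) and Kcnq1ot1 (3.23 and 2.14) passed at vehicle days 3 and 5, with limma adjusted p up to 0.0076, and Gas5 did not. These estimates include the replicate 2 values that the genes were chosen on, so the calls are descriptive. Within replicate 1 the differences from day 1 were 0.81 and 0.41 for Malat1 and 0.38 and 1.10 for Neat1. For Tug1 they were 0.08 and -0.28, and for Kcnq1ot1 1.44 and -0.07. The differences between replicates correlated between arms at 0.07, 0.90 and 0.90 at days 1, 3 and 5, so the pairing did not hold at day 1 and the numbers are taken as shared numbers only.

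Other signs turned for Kcnq1ot1 at day 3 of treatment under quantile normalization (-0.014) and equal protein-coding totals (-0.11), for Neat1 at day 5 under those totals (-0.028), for Kcnq1ot1 at day 5 under limma-voom (0.037), and for Gas5 at vehicle day 5 under quantile normalization (0.51) and those totals (0.47). With those totals, genes over 2-fold higher and lower in replicate 2 in both arms were 2285 and 4032 at day 3 and 2675 and 2822 at day 5, and the Gas5 mean at day 3 was 0.47. The cause was not tested.

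Leaving out 1 library gave 0 to 1427 calls for vehicle day 3 and 0 to 2610 for vehicle day 5. At day 1 of treatment log2 differences ran from -0.023 to 0.32 for Malat1 and from -0.11 to 0.0056 for Gas5. At day 3 they ran from -2.76 to 2.42 for Malat1, -0.051 to 0.69 for Neat1, -1.50 to 2.15 for Tug1, -1.90 to 1.97 for Kcnq1ot1 and -0.12 to 0.87 for Gas5. At day 5 they ran from -2.57 to 2.51, -0.44 to 0.64, -0.87 to 1.41, -2.37 to 2.36 and -0.051 to 0.52 for the same genes. For vehicle they ran from -3.56 to 0.099 for Tug1 and -0.092 to 0.90 for Gas5 at day 3, and from -0.37 to 4.51 for Kcnq1ot1 at day 5. Equal totals over all genes left every value as it was, being the deposited scale.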
